A study of Homo sapiens with 21 samples.

Results

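The genes described here are 44 genes of mitosis and of the G2 phase that precedes it, followed across wild-type and APP-mutant neuroblastoma cells treated with 3 compounds. They were taken by symbol: a probe set counted for a gene when its annotation named that gene alone, and of several the one brightest on average over the 21 arrays was used. All 44 genes were found, with 110 probe sets between them, among the 18132 genes measured in this way. Expression was measured on Affymetrix PrimeView arrays in SH-SY5Y, an established human neuroblastoma line that can be driven towards a neuronal state. Before treatment the cultures spent 3 to 4 days in medium with the differentiating agents BDNF (50 ng/mL), a neurotrophin, and retinoic acid (10 µM). Treatment lasted 72 h, and every culture held 0.1% DMSO.

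Wild-type cells (WT) received DMSO alone (WT_DMSO), AG494 (WT_AG494), NOSCA (WT_NOSCA) or PALBO (WT_PALBO). Cells carrying the V717F mutation of the amyloid precursor protein (APP) received DMSO (APP_DMSO), AG494 (APP_AG494) or NOSCA (APP_NOSCA). Each of the 7 groups had 3 arrays. AG494 inhibits the EGF receptor tyrosine kinase; the other compounds are named as the labels write them. The labels give no doses, treatment of APP cells with PALBO was not analysed here, and the APP cells are a single mutated line, so that the mutation and other differences of that line cannot be told apart. The series text speaks of 3 independent experiments, without labels that assign the arrays to them. The comparisons of a compound with vehicle in WT cells and of the genotypes under vehicle share the WT_DMSO arrays, and those in APP cells share APP_DMSO.

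In a dividing cell these genes are switched on late in the cycle. CDK1 with its cyclins starts mitosis, motors and microtubule-binding proteins build the spindle, the kinetochore joins chromosomes to it, a checkpoint delays anaphase until all are attached, and a ubiquitin ligase then releases the sister chromatids before the cell divides. In resting and early-cycle cells, RB-family proteins within the DREAM complex hold many of the promoters silent through an element called CHR. B-MYB with MuvB, FOXM1 and the CCAAT-binding factor NF-Y activate the same promoters later, and the kinases CDK4 and CDK6 act upstream by inactivating RB.

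The promoters of the members were therefore read for these elements, in RefSeq windows of GRCh38.p14 from 250 bases before to 50 bases after the annotated start. A window was found for 38 of the 44 members. CHR was searched as TTTGAA or TTCGAA and the CCAAT box as CCAAT, each on both strands; the motifs may overlap. CHR stood in 29 of 38 member windows (76.3%), against 13.5% of the windows of 14425 genes on the array. A CCAAT box stood in 30 (78.9%), against 36.4%, and both elements stood in 25 (65.8%), against 5.58%. In 26 windows a CHR lay within the 100 bases before the start or after it (68.4%, against 5.38%). These shares describe letters in a window and show neither binding nor a cause. The windows of 4 members are printed because these fell most, among members holding both elements, under PALBO in WT cells (MKI67, SPC25) or under AG494 in APP cells (HMMR, CENPA). Those of CENPE and KIF2C are printed because these fell most among the members with neither element in any window. All run 5′ to 3′ on the gene's own strand, with CHR and CCAAT matches of either strand in capitals.
MKI67 (chr10:128126374-128126673, - strand): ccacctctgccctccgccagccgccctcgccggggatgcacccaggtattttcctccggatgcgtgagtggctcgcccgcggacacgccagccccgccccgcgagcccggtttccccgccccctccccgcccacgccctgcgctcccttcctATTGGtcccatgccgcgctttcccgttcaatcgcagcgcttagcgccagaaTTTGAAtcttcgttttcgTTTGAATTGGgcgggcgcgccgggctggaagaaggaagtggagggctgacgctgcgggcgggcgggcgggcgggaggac
SPC25 (chr2:168890381-168890680, - strand): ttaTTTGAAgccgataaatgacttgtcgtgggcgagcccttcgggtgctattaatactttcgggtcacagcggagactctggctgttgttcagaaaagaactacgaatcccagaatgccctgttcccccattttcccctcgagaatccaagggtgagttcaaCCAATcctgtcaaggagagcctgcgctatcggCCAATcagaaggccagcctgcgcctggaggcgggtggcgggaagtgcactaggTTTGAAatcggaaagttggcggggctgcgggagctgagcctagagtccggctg
HMMR (chr5:163460382-163460681, + strand): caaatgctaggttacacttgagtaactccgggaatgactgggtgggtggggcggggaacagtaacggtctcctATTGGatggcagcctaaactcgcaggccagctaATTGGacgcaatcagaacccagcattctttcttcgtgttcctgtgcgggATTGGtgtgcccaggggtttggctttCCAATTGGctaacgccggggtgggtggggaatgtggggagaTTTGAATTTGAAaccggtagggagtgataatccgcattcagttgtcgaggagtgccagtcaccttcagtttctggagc
CENPA (chr2:26785806-26786105, + strand): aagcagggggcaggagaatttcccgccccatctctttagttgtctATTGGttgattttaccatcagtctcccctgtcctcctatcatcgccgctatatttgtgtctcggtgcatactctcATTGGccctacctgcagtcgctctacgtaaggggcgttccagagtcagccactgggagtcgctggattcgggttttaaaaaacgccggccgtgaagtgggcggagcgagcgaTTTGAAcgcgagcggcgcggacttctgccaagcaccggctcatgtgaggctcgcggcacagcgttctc
CENPE (chr4:103198294-103198593, - strand): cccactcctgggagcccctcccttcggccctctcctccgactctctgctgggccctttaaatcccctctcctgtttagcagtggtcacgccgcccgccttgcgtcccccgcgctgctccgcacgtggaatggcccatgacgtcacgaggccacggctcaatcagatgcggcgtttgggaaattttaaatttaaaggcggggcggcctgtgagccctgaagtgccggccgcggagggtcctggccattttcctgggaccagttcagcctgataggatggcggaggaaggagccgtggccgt
KIF2C (chr1:44739587-44739886, + strand): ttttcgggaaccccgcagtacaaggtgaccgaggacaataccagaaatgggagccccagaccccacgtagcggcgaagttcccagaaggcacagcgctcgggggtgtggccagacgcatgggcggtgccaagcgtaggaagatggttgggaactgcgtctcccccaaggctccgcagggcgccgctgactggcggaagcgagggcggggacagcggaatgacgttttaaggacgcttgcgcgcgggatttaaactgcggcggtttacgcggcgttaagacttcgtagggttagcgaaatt

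Under PALBO in WT cells the median log2 difference was -0.63 over the 25 members with both elements, -0.50 over the 4 with CHR only, -0.69 over the 5 with CCAAT only and -0.62 over the 4 with neither (KIF2C, CENPE, MYBL2 and CDC25C, the last of which holds both in another of its RefSeq windows). Under AG494 in APP cells the corresponding medians were -0.60, -0.63, -0.54 and -0.64. No test was made between these classes.

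Markers of cell type were read beside the labelled line. Of 12 measured neuroblast markers, PHOX2A and HAND2 stood at group means of 12.12 to 12.74 in every group, while TH, the first enzyme of catecholamine synthesis, was lower at 7.51 to 8.94. The leukocyte marker PTPRC stood at 4.91 to 5.10 and the epithelial marker EPCAM at 5.42 to 5.72, near the floor of the table (4.143). Markers of other cell types were not all low. Of 7 immune markers CD68 stood highest, at 7.89 to 8.53. The 5 mesenchymal markers were FN1 (12.24 to 12.85), THY1 (9.66 to 10.59), COL1A1 (9.11 to 10.44), PDGFRB (8.18 to 8.46) and COL1A2 (5.73 to 5.92). Array medians over all probe sets lay between 7.877 and 8.03. The means of the members over 21 arrays ran from 8.43 (ECT2) to 12.53 (BIRC5), at percentiles 49.9 to 96.7 of all genes. All values are log2 intensities, and a level is not compared between genes.

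The 44 genes moved as a block. Their mean per array was 10.78 to 10.85 in WT_DMSO, 10.71 to 10.76 in WT_NOSCA, 10.66 to 10.79 in APP_DMSO and 10.49 to 10.76 in WT_AG494. It was lower in APP_NOSCA (10.49 to 10.55), and lowest in WT_PALBO (10.21 to 10.29) and APP_AG494 (10.08 to 10.2). APP_AG494 was the group with the lowest mean for 35 members and WT_PALBO for the other 9, while 36 members were highest in WT_DMSO. Between any 2 members, the correlation over the 21 arrays had a median of 0.853 (946 pairs, 0.44 to 0.972). These arrays share their group differences. With group means removed, a member's correlation with the mean of the others ran from -0.235 (INCENP) to 0.879 (CENPA).

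**Figure D1:**
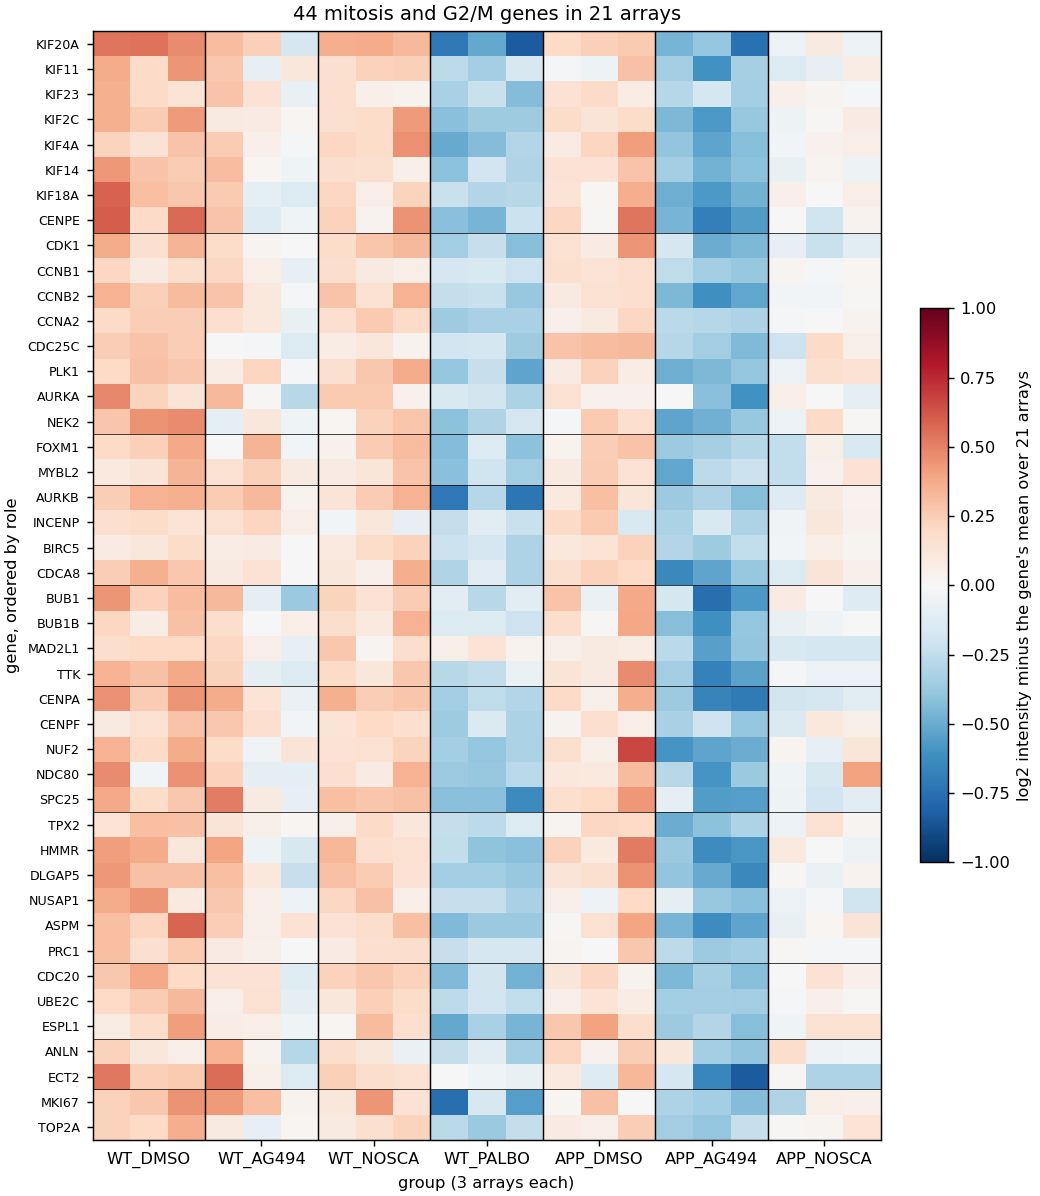
Heat map of the 44 members (rows, ordered by role) in the 21 arrays (columns, 3 per group); colour is the log2 intensity minus the gene's mean over all arrays. Blue columns fill WT_PALBO and APP_AG494, and the rows of MAD2L1 and ECT2 stay pale under PALBO.

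PALBO lowered mitotic genes in WT cells. Of 44 members 40 were lower and 0 higher than in WT_DMSO (limma, adjusted p under 0.05 over all genes), where 3.87% of all genes were called lower and 3.11% higher. With the run of title numbers as a replicate block 42 members were lower, BUB1 and ANLN included, beside 1332 of all 18132 genes. The median log2 difference was -0.59, against a 25th and 75th percentile of -0.10 and 0.10 over all genes, and 41 members fell below the 5th percentile of all genes (-0.35). In all 44 members the 3 PALBO arrays lay below the 3 DMSO arrays, which held for 10.4% of all genes. In these bulk samples, fewer cells in mitosis and less RNA per cell cannot be told apart.

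**Figure D2:**
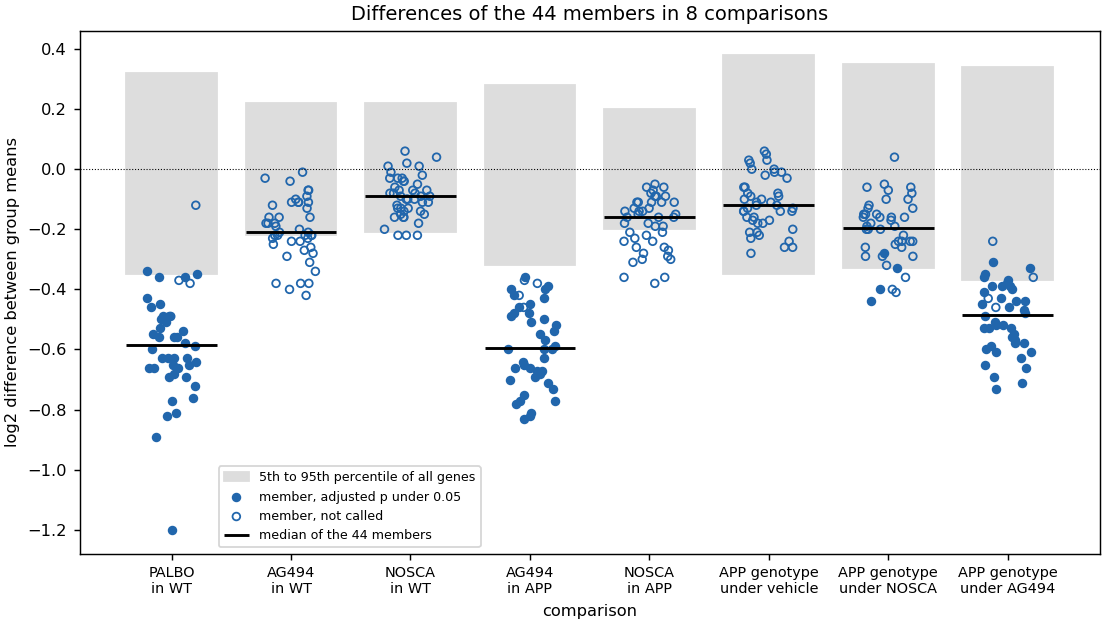
Log2 difference of each of the 44 members (points) in 8 comparisons, with the median of the members (black line) and the 5th to 95th percentile of all 18132 genes (grey). Filled points passed a limma adjusted p of 0.05 in the fit without a replicate block. PALBO in WT and AG494 in APP have medians of -0.59. AG494 in WT, NOSCA in either genotype and the APP genotype under vehicle have no filled point.

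The kinesin motors fell in 8 of 8 cases, by a median of -0.64. KIF20A, the motor that brings the chromosomal passenger complex to the midzone of the anaphase spindle, changed most of all members. It read 10.99, 11.00 and 10.93 in WT_DMSO and 9.74, 9.95 and 9.63 in WT_PALBO, so that the groups lay far apart. Its level was 43.6% of the vehicle level (log2 difference -1.20 ± 0.11 SE, limma adjusted p = 4e-06). CENPE, the kinetochore motor that carries chromosomes to the spindle equator, read 9.50, 9.08 and 9.46 against 8.47, 8.43 and 8.68 and fell by 0.82 ± 0.15 SE (adjusted p = 0.0014 in limma). KIF2C, which depolymerises microtubule ends, fell by 0.72. The falls of KIF18A, KIF4A, KIF14, KIF11, which pushes the spindle poles apart, and KIF23, a part of centralspindlin, were between -0.65 and -0.55.

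Among the 8 genes of mitotic entry all were lower, by a median of -0.57. NEK2, a kinase that separates the centrosomes, fell most (log2 difference -0.69 ± 0.10 SE, limma adjusted p = 2e-04). It read 10.87, 11.04 and 11.06 in WT_DMSO and 10.18, 10.29 and 10.42 in WT_PALBO. CDK1 itself fell by 0.63, as did the kinase PLK1. Of the cyclins, CCNB2 fell by 0.58 and CCNA2 by 0.56, while CCNB1 fell by 0.34 ± 0.07 SE (adjusted p = 0.0047 in limma) and so kept 79.1% of its vehicle level. CDC25C, the phosphatase that activates CDK1, fell by 0.49, and AURKA, the centrosomal Aurora kinase, by 0.50. The transcription factors FOXM1 and MYBL2 (B-MYB), which drive this gene class, fell by 0.60 and 0.51.

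The chromosomal passenger complex fell unevenly. Its kinase AURKB read 11.56, 11.66 and 11.67 in WT_DMSO and 10.60, 11.03 and 10.59 in WT_PALBO, a fall to 54.0% (-0.89 ± 0.11 SE, limma adjusted p = 5.3e-05). The second PALBO array was the least reduced, as it was for KIF20A. Its partners fell less: CDCA8 (borealin) by 0.53, BIRC5 (survivin) by 0.36 and the scaffold INCENP by 0.36. BIRC5 was the brightest member, and 11 of its other probe sets on the array also gave differences below 0, from -0.83 to -0.09.

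The spindle checkpoint held the smallest change. MAD2L1 (MAD2), the inhibitor that unattached kinetochores release, read 10.60, 10.62 and 10.62 in WT_DMSO and 10.48, 10.56 and 10.46 in WT_PALBO. Its difference of -0.12 was not called (limma adjusted p = 0.52), with a 95% interval of -0.29 to 0.05. Its 3 further probe sets gave -0.21, 0.03 and 0.06, none of them called. TTK (MPS1) fell by 0.54 and BUB1B (BUBR1) by 0.35, whereas BUB1 at -0.49 ± 0.16 SE missed the threshold (adjusted p = 0.067 in limma, and 0.011 with the replicate block).

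All 5 kinetochore and centromere genes fell. SPC25 fell by 0.77 and its partners in the NDC80 complex, NUF2 and NDC80, by 0.66 and 0.64. CENPA, the histone variant that marks centromeres, fell by 0.68, and CENPF, of the outer kinetochore, by 0.45. The 6 spindle assembly genes fell too, from ASPM, a spindle pole protein, by 0.76 to PRC1, which bundles midzone microtubules, by 0.43. Between them lay DLGAP5 (-0.69), HMMR (-0.66), NUSAP1 (-0.56) and TPX2, the activator of Aurora A (-0.46).

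Genes of mitotic exit fell in 3 of 3 cases: ESPL1 (separase), which cuts cohesin, by 0.66, CDC20, which activates the anaphase-promoting complex, by 0.65, and UBE2C, the ubiquitin-conjugating enzyme of that complex, by 0.49. Both cytokinesis genes missed the threshold, ANLN (anillin) at -0.37 ± 0.14 SE (limma adjusted p = 0.15, and 0.024 with the replicate block) and ECT2, the exchange factor that activates RhoA, at -0.38 ± 0.17 SE (limma adjusted p = 0.23, and 0.062 with the block). The proliferation marker MKI67 (Ki-67) read 11.38, 11.42 and 11.60 in WT_DMSO and 10.39, 10.99 and 10.60 in WT_PALBO. Its fall of 0.81 ± 0.14 SE passed the threshold (adjusted p = 0.0014 in limma), and all 6 of its probe sets fell, by -1.11 to -0.81. TOP2A, which untangles sister chromatids, fell by 0.56.

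AG494 lowered the members in APP cells. Against APP_DMSO, 40 of 44 were lower and 0 higher, with 2.76% of all genes called lower and 1.99% higher. The median log2 difference was -0.59, as under PALBO in WT cells, and all 44 members lay below the 5th percentile of all genes (-0.32). Members made up 11 of the 100 largest falls on the array, against 2 of 100 under PALBO in WT cells. Arrays of the groups were apart for 42 members, which held for 10.9% of all genes; the exceptions were ANLN and INCENP. Not called were MKI67 (adjusted p = 0.076), NUSAP1 (adjusted p = 0.063), AURKA (adjusted p = 0.11) and ANLN (adjusted p = 0.16), at -0.46 to -0.37 in limma. With the replicate block these also passed, with 44 of 44 members and 1281 of all 18132 genes lower.

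NUF2, a kinetochore subunit that holds microtubules, changed most. It read 9.04, 8.94 and 9.55 in APP_DMSO and 8.29, 8.35 and 8.38 in APP_AG494, and the third vehicle array was high. The difference was -0.83 ± 0.11 SE, or 56.2% of the vehicle level (limma adjusted p = 0.00036). Next came CENPE by -0.82, HMMR by -0.81 and CENPA by -0.78. KIF20A read 10.66, 10.70 and 10.72 in APP_DMSO against 9.99, 10.07 and 9.71, a fall of 0.77, and DLGAP5 fell by the same amount.

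All 4 checkpoint genes were called under AG494 in APP cells: TTK at -0.75, BUB1 at -0.70, BUB1B at -0.67 and MAD2L1 at -0.48. MAD2L1 read 10.48, 10.51 and 10.50 in APP_DMSO and 10.15, 9.88 and 10.03 in APP_AG494, with no overlap (limma adjusted p = 0.0014). Of its further probe sets, those at -0.55 and -0.64 were called and that at -0.10 was not. The kinesins fell in 8 of 8 cases (median -0.66), and the kinetochore genes in 5 of 5 (median -0.67). Mitotic entry genes fell in 7 of 8 cases (median -0.58), with CCNB2 and CDC25C lowest at -0.66. In the passenger complex CDCA8 fell by 0.71, AURKB by 0.54, BIRC5 by 0.46 and INCENP by 0.36. ESPL1 fell by 0.64, CDC20 by 0.52, ECT2 by 0.65, FOXM1 by 0.51 and MYBL2 by 0.49.

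**Figure D3:**
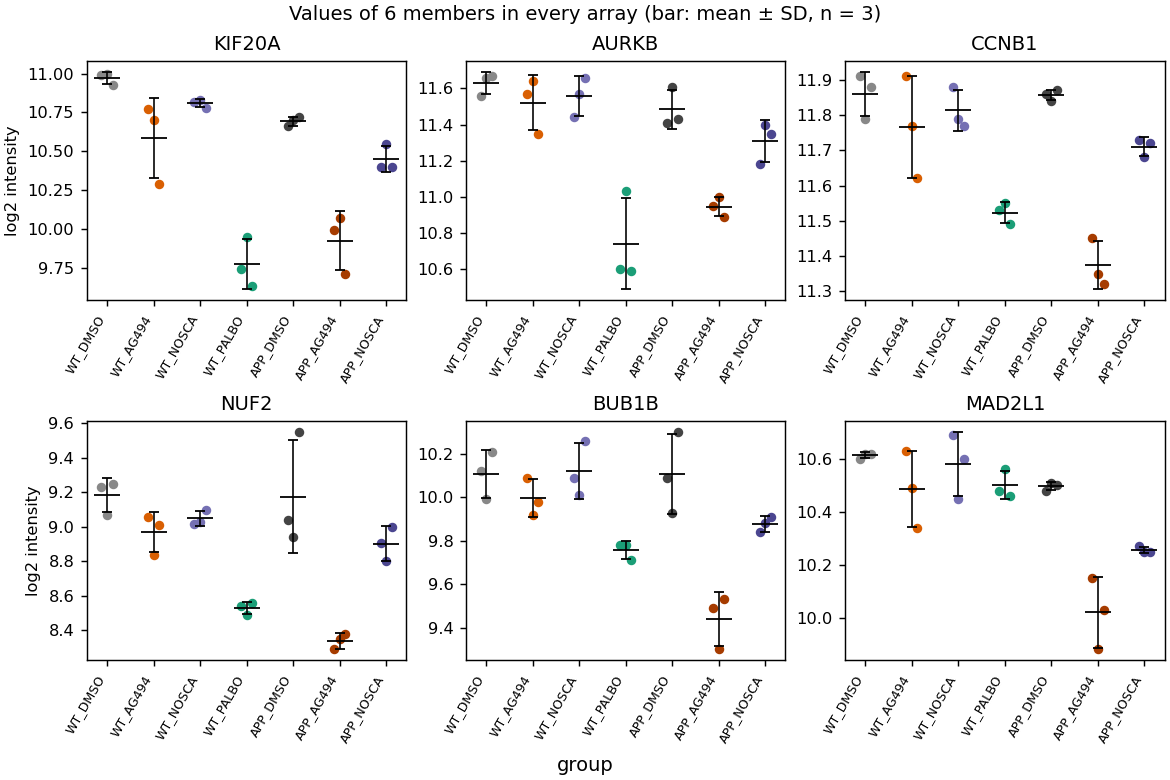
Log2 intensity of 6 members in every array (points) with the mean ± SD of each group (n = 3); each panel has its own axis. KIF20A, AURKB, CCNB1, NUF2 and BUB1B are low in WT_PALBO and APP_AG494, whereas MAD2L1 is low in APP_AG494 (9.88 to 10.15) and not in WT_PALBO (10.46 to 10.56).

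The falls under PALBO in WT cells and AG494 in APP cells, which share no array, could be set side by side. In both comparisons 37 members were called; AURKA, NUSAP1 and MKI67 were called under PALBO alone, BUB1, MAD2L1 and ECT2 under AG494 alone, and ANLN in neither. With the replicate block 42 and 44 were called, which left MAD2L1 and ECT2 under AG494 alone. Across the 44 members the sizes of the falls correlated with r = 0.475 (Spearman 0.521), as a description over genes that are not independent; over the other 18088 genes r was 0.141. The difference of the differences was then fitted, a comparison added after the data had been seen. It called 0 members in either direction by limma (1.44% of all genes lower, 1.4% higher). An unadjusted limma p under 0.05 was found for 2436 of all 18132 genes and for 4 members. The largest values of members in this comparison were KIF20A at -0.42 (95% interval -0.75 to -0.10) and MAD2L1 at 0.36 (0.12 to 0.60). With the replicate block these 2 passed (adjusted p = 0.038 for KIF20A and 0.035 for MAD2L1, limma). They were among 707 genes called lower and 905 called higher of all 18132. A p that misses the threshold does not show that both compounds act alike, and the doses are unknown.

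**Figure D4:**
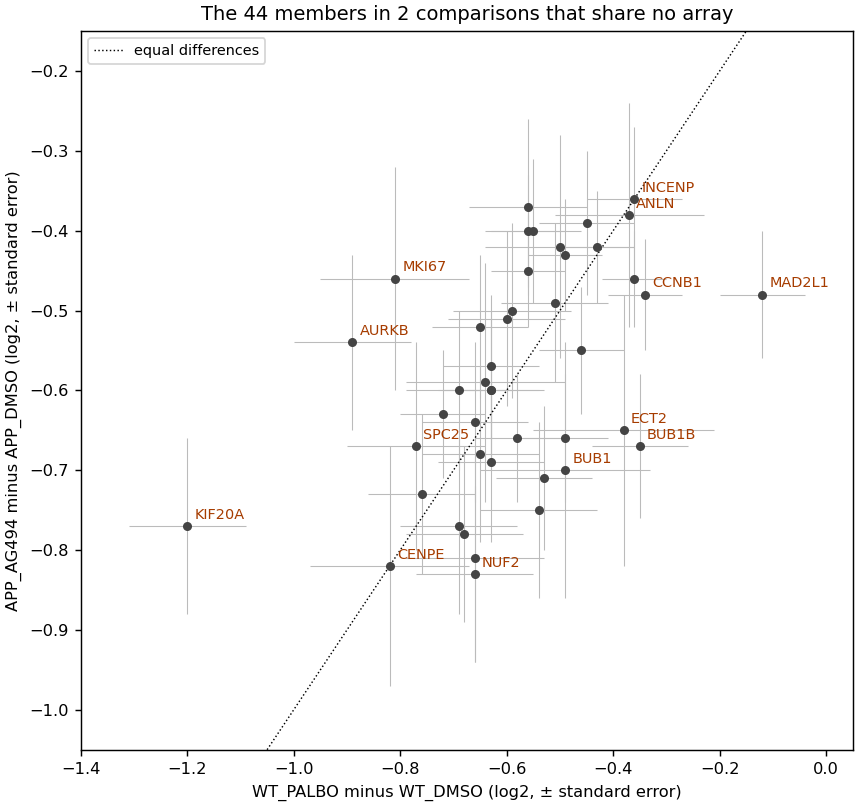
Each point is 1 of the 44 members, with its log2 difference ± standard error under PALBO in WT cells (horizontal) and under AG494 in APP cells (vertical); the dotted line marks equal differences. KIF20A (-1.20, -0.77), AURKB and MKI67 lie on the side of PALBO, and MAD2L1 (-0.12, -0.48), BUB1B and ECT2 on the side of AG494.

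In WT cells the values under AG494 lay closer to those of vehicle. No member was called in the fit without a replicate block (0 lower, 0 higher in limma), where 0.0882% of all genes were called lower and 0.165% higher. With the block 7 members were called lower, as given below, beside 0.888% of all genes. All 44 differences were below 0, against 52% of all genes, with a median of -0.21. The members move together, so these signs are not independent. Leaving out WT_AG494 replicate 3 reversed the sign of 6 members and gave a median of -0.13. An unadjusted limma p under 0.05 was found for 1474 of all 18132 genes and for 22 members. The arrays of the groups were apart for 15 members, against 5.76% of all genes. NEK2 had the lowest p: it read 10.87, 11.04 and 11.06 in WT_DMSO and 10.50, 10.70 and 10.55 in WT_AG494, a difference of -0.40 with a 95% interval of -0.61 to -0.20. CDC25C (-0.31), KIF2C (-0.27), KIF18A (-0.38) and KIF20A (-0.38) followed.

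The 3 WT_AG494 arrays differed among themselves in these genes, with a median SD of 0.15 over the members against 0.11 over all genes. The third was the lowest (10.49 as a mean over members) and the first the highest (10.76). The title numbers form 3 runs, each with 1 array of every group, and arrays of a run deviated together, so that differences can also be taken within a run. AG494 minus DMSO in WT cells then had medians of -0.10, -0.13 and -0.34. In APP cells they were -0.48, -0.62 and -0.62. With the run as a replicate block, 7 members were called lower in WT cells: NEK2, CDC25C, KIF2C, KIF18A, KIF20A, TOP2A and CENPE (0.888% of all genes).

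**Figure D5:**
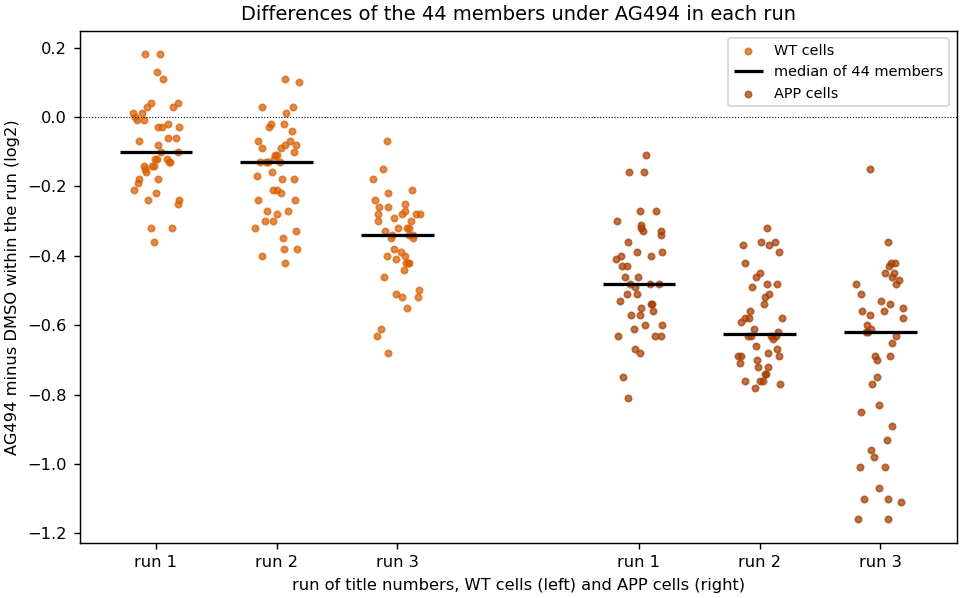
Log2 difference of the 44 members (points) between the AG494 and DMSO arrays of the same run of title numbers, in WT cells (left) and APP cells (right), with the median in black. In WT cells the third run lies lowest (-0.34), and in every run the APP median is below the WT median.

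Whether AG494 acted differently in the 2 genotypes was tested as an interaction. All 44 members had the larger fall in APP cells, by a median of -0.38 log2 units, and 41 did so in each run. The interaction was below 0 for 51.3% of all genes, whose signs in each run were not counted. In the fit without a replicate block no member passed the threshold (0 lower, 0 higher in limma), where 0.0221% of all genes were lower and 0.0165% higher. An unadjusted limma p under 0.05 was found for 1365 of all 18132 genes and for 32 members. The lowest p-values were those of CCNB2 (-0.49 ± 0.11 SE), BUB1B (-0.56 ± 0.13 SE), BIRC5 (-0.38 ± 0.09 SE), KIF4A (-0.57 ± 0.14 SE) and CCNB1 (-0.39 ± 0.10 SE), with limma adjusted p = 0.14 to 0.18. CCNB1, the cyclin of mitotic entry, shows the pattern: it read 11.91, 11.77 and 11.62 in WT_AG494, which overlapped WT_DMSO (11.91, 11.79 and 11.88), and 11.45, 11.35 and 11.32 in APP_AG494, below APP_DMSO (11.86, 11.84 and 11.87). With the replicate block 9 members passed (0.739% of all genes): KIF4A, CCNB1, CCNB2, BIRC5, CDCA8, BUB1B, NUF2, TPX2 and ASPM, at limma adjusted p = 0.014 to 0.049.

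Without a compound no member passed the threshold between the genotypes in the fit without a replicate block, whereas 3 did with the block. Of the 44 members 0 were called lower and 0 higher in APP_DMSO than in WT_DMSO by limma, where 4.05% of all genes were lower and 5.2% higher. An unadjusted limma p under 0.05 was found for 3673 of all 18132 genes and for 7 members. The median difference of the members was -0.12. The lowest p-values were those of NEK2 (-0.26), KIF20A (-0.28), UBE2C (-0.16), KIF11 (-0.26) and KIF2C (-0.17). KIF20A read 10.99, 11.00 and 10.93 in WT_DMSO and 10.66, 10.70 and 10.72 in APP_DMSO, with no overlap. Such separation was seen in 7 members and in 9.18% of all genes. The replicate block called 3 members lower, NEK2, KIF20A and KIF11 (7.14% of all genes), and leaving out APP_DMSO replicate 3 called 2 (631 of all 18132 genes lower). CDKN2A, the gene of the CDK4/6 inhibitor p16, stood at 9.50 ± 0.23 (SD, n = 3) in WT_DMSO and 6.68 ± 0.23 in APP_DMSO (limma adjusted p = 3.5e-08); whether it bears on the members was not tested.

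Under AG494 the genotypes stood apart. APP_AG494 was below WT_AG494 in 40 of 44 members and above it in 0 (4.92% of all genes lower, 4.1% higher), with a median of -0.48, and BUB1, NDC80, AURKA and ANLN were not called. The largest differences were those of CENPA (-0.73), ECT2 (-0.71), ASPM (-0.69) and KIF20A (-0.66). CENPA read 10.51, 10.27 and 10.07 in WT_AG494 and 9.77, 9.47 and 9.43 in APP_AG494. This comparison shares the APP_AG494 arrays with the test of AG494 in APP cells and is no separate evidence of the fall. Markers of cell type differed too: COL1A1 (-0.92) and THY1 (-0.66) of 5 mesenchymal markers, S100B (-0.77) of 2 Schwann cell markers and ELAVL4 (-0.32) of 12 neuroblast markers were lower in APP_AG494. The neuroblast markers CHGA (0.56) and CHGB (0.63), CD68 (0.45) of 7 immune markers and PECAM1 (0.34) of 4 endothelial markers were higher, and 0 of 4 epithelial markers were called (limma). PECAM1 was dim in both groups, at 5.69 in WT_AG494 and 6.02 in APP_AG494, where the lowest value of any probe set was 4.143. Array means were 9.18 to 9.29 in APP_AG494 against 9.48 to 9.62 in WT_AG494 for mesenchymal markers, and 12.02 to 12.1 against 11.92 to 12.04 for neuroblast markers. Markers differed between the genotypes under vehicle as well. There, 2 of 5 mesenchymal and 1 of 2 Schwann cell markers were lower in APP_DMSO, and of 12 neuroblast markers 2 were lower and 2 higher. No immune, endothelial or epithelial marker was called under vehicle. COL1A1 stood at 10.44 in WT_DMSO and 9.24 in APP_DMSO, S100B at 7.19 and 6.18, and CHGA at 12.31 and 12.90. The part of these markers in the members' differences was not tested.

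NOSCA did not lower any member past the threshold against its own vehicle. In WT cells 0 members were called in either direction by limma (0.011% of all genes lower, 0.00552% higher), and their median difference was -0.09. An unadjusted limma p under 0.05 was found for 1253 of all 18132 genes and for 3 members. The lowest p-values were those of NEK2 (-0.22), KIF14 (-0.20), CDC25C (-0.18), KIF18A (-0.22) and INCENP (-0.16). In APP cells 0 members were called by limma (0% of all genes in either direction), although all 44 differences were below 0 (median -0.16), against 50.2% of all genes. An unadjusted limma p under 0.05 was found for 959 of all 18132 genes and for 14 members. CDK1 was lowest in p: it read 11.29, 11.22 and 11.58 in APP_DMSO and 11.06, 10.92 and 11.03 in APP_NOSCA, a difference of -0.36 with a 95% interval of -0.57 to -0.15. CDC25C (-0.29), CENPA (-0.36), MAD2L1 (-0.24) and SPC25 (-0.38) followed. The interaction of NOSCA with the genotype called 0 members by limma (0% of all genes), with 2 members and 895 of all 18132 genes at an unadjusted p under 0.05.

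Between genotypes under NOSCA, 4 members were lower in APP cells and 0 higher (3.65% of all genes lower, 3.56% higher): CENPA by 0.44, CDK1 by 0.40, MAD2L1 by 0.33 and CCNB2 by 0.28. MAD2L1 read 10.69, 10.45 and 10.60 in WT_NOSCA and 10.27, 10.25 and 10.25 in APP_NOSCA. The replicate block raised the count to 13 (6.79% of all genes). Single arrays also moved it: 1 member was called without WT_NOSCA replicate 1 or 3 or APP_NOSCA replicate 3, 2 without APP_NOSCA replicate 1 and 0 without APP_NOSCA replicate 2. In fits with 1 array of these groups left out, 860 to 1056 of all 18132 genes were called in either direction.

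Compounds were also set against each other within a genotype, at doses the labels do not give. In WT cells PALBO gave lower values than NOSCA in 36 of 44 members and higher in 0 (2.1% of all genes lower, 1.13% higher), led by KIF20A (-1.03) and AURKB (-0.82). Without WT_NOSCA replicate 3 that count was 23, beside 212 of all 18132 genes lower. PALBO gave lower values than AG494 in 24 members and higher in 0 (2.05% of all genes lower, 1.2% higher), led by KIF20A (-0.81), AURKB (-0.78), MKI67 (-0.74) and SPC25 (-0.66). MAD2L1 differed by 0.01 between PALBO and AG494, and BUB1 by -0.11. The count of 24 for PALBO against AG494 fell to 13 without WT_AG494 replicate 1, 15 without WT_AG494 replicate 2, 14 without WT_PALBO replicate 1 and 10 without WT_PALBO replicate 3. In fits with 1 array of these groups left out, 290 to 526 of all 18132 genes were called in either direction. AG494 and NOSCA differed in 0 members by limma in WT cells (0% of all genes lower, 0.011% higher). There, an unadjusted limma p under 0.05 was found for 713 of all 18132 genes and for 3 members.

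In APP cells AG494 gave lower values than NOSCA in 25 of 44 members and higher in 0 (0.739% of all genes lower, 0.822% higher). The median difference was -0.38, and all 44 members were lower in each run. Of all genes 54.9% had a difference below 0, and their signs in each run were not counted. ASPM (-0.57), NUF2 (-0.56), KIF18A (-0.55) and HMMR (-0.54) led, while CDK1 (-0.23), FOXM1 (-0.21) and NUSAP1 (-0.20) were not called. The count was 10 without APP_AG494 replicate 2 or APP_NOSCA replicate 3, 15 without APP_AG494 replicate 3 and 11 without APP_NOSCA replicate 2. In fits with 1 array of these groups left out, 129 to 221 of all 18132 genes were called in either direction.

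Other genes of the cycle moved with the members where these fell. Of 47 further mitotic genes, 29 were lower under PALBO in WT cells and 35 under AG494 in APP cells, with none higher. CDCA3 fell by 0.94 and DEPDC1 by 0.74 under PALBO, and CKAP2L fell by 0.82 and NCAPH, a condensin subunit, by 0.73 under AG494 in APP cells. Of 37 genes of the G1/S transition and of replication, 18 were lower and 1 higher under PALBO. E2F7 and E2F8, repressor E2F factors, fell by 1.09 and 0.84, CDT1, a licensing factor, by 0.74, and CCNE1 (cyclin E1) rose by 0.37. Under AG494 in APP cells 14 of the 37 were lower (28 with the replicate block); of those 14, PRIM1, a primase subunit, was lowest at -0.51.

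Of 16 genes of the anaphase-promoting complex, 1 was lower in either comparison (2 lower and 1 higher under PALBO with the replicate block). In both it was UBE2S, the complex's chain-extending enzyme, at -0.49 under PALBO and -0.45 under AG494 in APP cells. Of the 15 regulators of the DREAM, MuvB and NF-Y group, 3 fell in each: RBL1 (p107), MYBL1 and TFDP1 under PALBO, and NFYA, RBL1 and NFYB under AG494 in APP cells, where the replicate block called 7. Of 11 centriole and centrosome genes, 3 fell under PALBO and 4 under AG494 in APP cells (5 and 9 with the replicate block); PLK4, the kinase of centriole duplication, was at -0.32 and -0.52. Of 13 genes around CDK4/6 and RB, 3 fell under PALBO (CDKN1C, CDKN1A and CDK2) and 0 under AG494 in APP cells. The vehicle arrays of CDKN1C were scattered: it stood at 10.47 ± 1.04 (SD, n = 3) in WT_DMSO and 8.82 ± 0.27 in WT_PALBO. Its means were also below that of WT_DMSO in WT_AG494 (9.28) and WT_NOSCA (9.42).

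Some markers of cell type moved beside the members. Under PALBO, 3 of 12 neuroblast markers rose (ISL1 by 0.43, CHGA by 0.49 and CHGB by 0.68) and 2 of 5 mesenchymal markers fell (COL1A1 by 0.88 and FN1 by 0.43; the replicate block also called 1 higher), and S100B, 1 of 2 Schwann cell markers, rose by 0.95. The mesenchymal marker THY1 stood at 10.31 in WT_DMSO and 10.59 in WT_PALBO. No immune, endothelial or epithelial marker was called there. Their mean per array was 12.18 to 12.26 for neuroblast markers in WT_PALBO against 11.99 to 12.11 in WT_DMSO, and 9.15 to 9.4 against 9.49 to 9.52 for mesenchymal markers. For the Schwann cell markers it was 7.73 to 8.05 against 7.41 to 7.57. Under AG494 in APP cells 1 of 7 immune markers, CD68, rose by 0.52, with array means of 6.03 to 6.08 against 5.97 to 6.04 for that list. The part of these markers in the members' falls was not tested.

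Most probe sets of a member gave the same sign. Of the 110 member probe sets, 93 were lower under PALBO in WT cells and 96 under AG494 in APP cells, with none higher. In the same fit, the brightest probe set was lower for 664 of all 18132 genes under PALBO and for 451 under AG494. The share over all probe sets was not counted. Among the 29 members with more than 1 probe set, the sign was mixed for MAD2L1 under PALBO and for BIRC5 under AG494. The probe set of BIRC5 above 0 (0.13) was dim, with a mean of 5.81. Probe sets naming KIF4A or AURKA beside another gene were left out; that shared by KIF4A and KIF4B read 9.03 ± 0.19 (SD, n = 3) in WT_DMSO and 8.44 ± 0.08 in WT_PALBO.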

How the data were processed

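The authors deposited RMA values on the log2 scale, made with affy according to the tools listed per the submitters' processing notes; the versions are not given in the sources used here. They were used as deposited, and no dim gene was filtered out. Of 49372 probe sets, 79 were controls, 44988 had 1 gene symbol, 1832 had several and 2473 were not listed; the last 2 kinds were left out. All 21 arrays entered 1 limma fit (limma 3.58.1, R 4.3.3, lmFit and eBayes) with 1 coefficient per group and no replicate block. The fit was checked on simulated data with independent noise, which could not show what leaving out the runs does. Two-sided p-values were adjusted over 18132 genes by the Benjamini-Hochberg method, with a threshold of 0.05. Array number limits the precision, and p-values measure the spread between arrays. The runs of title numbers pair the arrays: deviations from group means correlated within runs (63 pairs, 0.226 to 0.685) and not between them (126 pairs, -0.529 to 0.0889). Members are named by role, the called ones with the largest change first; where fewer than 5 were called, the 5 with the lowest p. Members, lists and promoter rule were chosen with earlier results of these data known. Alternatives were the block, the probe set rule, a filter on dim genes, renormalisation, centring, other priors, array weights, a fold of at least 1.5, only the groups compared, and each array left out.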

Additional observations from a re-analysis of the deposited data

Results flagged for a closer look

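For 2 members, single arrays of the groups compared moved in opposite directions in 2 settings, without a test behind the pattern itself. CDC25C was 0.05 higher in APP than in WT cells under DMSO and 0.31 lower under AG494 (log2 differences 0.05 and -0.31, difference -0.36), with every array on the same side of the other group's mean in each setting. The interaction that measures this difference missed the threshold (limma adjusted p = 0.36, 0.12 with the replicate block). SPC25 stood 0.01 above its vehicle under NOSCA in WT cells and at -0.38 in APP cells, a difference of -0.40 (interaction adjusted p = 1 in limma, 0.41 with the replicate block). The value in WT cells is smaller than its standard error of 0.13.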

How the results depend on the processing

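Of 516 recomputed counts, 480 stayed within 1.5 times the reported one. These include the counts of members called higher, of which the main fit had none in any comparison. An empty count that stayed empty was scored as unchanged, so the total says little about stability. The 8 members with the largest falls under PALBO in WT cells and the 8 under AG494 in APP cells stayed called in the same direction in 256 of 256 values. They were picked for their size in these same data, and other members lost their call in some settings. With the replicate block the counts were 3 members lower between genotypes under vehicle, 7 under AG494 in WT cells, 13 between genotypes under NOSCA and 9 for AG494 by genotype, and 1 lower and 1 higher for PALBO in WT less AG494 in APP; the block changed no other count of members by more than 1.5 times. Requiring a fold of at least 1.5 left 22 under PALBO in WT, 23 under AG494 in APP, 10 between genotypes under AG494, 0 between genotypes under NOSCA, 4 for PALBO against AG494, 13 for PALBO against NOSCA and 0 for AG494 against NOSCA in APP. This was a cutoff on the estimated difference beside the same p-values, and no larger change was tested. Under it, all genes called lower numbered 251 of 18132 for PALBO in WT, 152 for AG494 in APP and 343 between genotypes under AG494. They numbered 336 between genotypes under NOSCA, 137 for PALBO against AG494 and 122 for PALBO against NOSCA. With only the compared groups in the fit, PALBO against AG494 called 8 and AG494 against NOSCA in APP 11, from fewer arrays. PALBO against AG494 then called 191 of all genes lower. Averaging the probe sets of a gene gave 1 between genotypes under vehicle and 8 between genotypes under NOSCA, where leaving out the dimmest 33.3% of genes gave 7. Averaging called 810 and 764 of all genes lower in these comparisons, in that order. The filter called 682 of the genes it kept lower between genotypes under NOSCA. Array weights gave 1 between genotypes under vehicle, 2 for AG494 by genotype and 1 higher for PALBO in WT less AG494 in APP. With the weights, 886 of all genes were lower between genotypes under vehicle and 35 for AG494 by genotype. The cause of these changes was not tested. Leaving out single arrays gave 0 to 2 between genotypes under vehicle, 0 to 3 between genotypes under NOSCA, 31 to 42 between genotypes under AG494, 36 to 38 under PALBO in WT and 34 to 42 under AG494 in APP. It gave 10 to 24 for PALBO against AG494, 23 to 28 for PALBO against NOSCA and 10 to 24 for AG494 against NOSCA in APP. Of all genes, those called in either direction then numbered 1197 to 1666 between genotypes under vehicle and 860 to 1056 under NOSCA. They numbered 1078 to 1484 between genotypes under AG494, 871 to 1184 under PALBO in WT and 479 to 761 under AG494 in APP. For the pairs of compounds they were 290 to 526, 331 to 522 and 129 to 221, in that order. The number of arrays limits the precision.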
